A study of Mus musculus with 7 samples.

Results

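The 5 genes described here, Slc4a8, Rab44, BC018473, Emilin2 and Gm15657, are 5 of the 32285 genes counted in single bone marrow cells of mice labelled B4galt1 KO (genotype 129S1/C57Bl/6, B4-/-) or WT (genotype 129S1/C57Bl/6). They were chosen because earlier results of the same data showed higher values in the KO-labelled libraries, over all cells and within cell states. Their label differences are therefore given as a description, with no p-value or call, and tests are given only for measures that the choice did not use. The cells were LSK cells, bone marrow cells sorted as lineage-negative with Sca-1 and cKit on their surface, a fraction that holds blood stem cells and early progenitors. There were 3 KO-labelled and 4 WT-labelled libraries. Ages and the number of animals behind a library are not given in the sources used here, so the spread between libraries may be partly technical.

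Slc4a8 encodes a sodium-driven chloride/bicarbonate exchanger, which carries bicarbonate into cells and so takes part in setting the pH inside them. Rab44 encodes an unusually large Rab GTPase with EF-hand domains that bind calcium, and Rab proteins direct vesicle traffic, including the release of granules in myeloid cells and mast cells. Emilin2 encodes an extracellular matrix glycoprotein with the EMI domain of the emilin and multimerin family. BC018473 and Gm15657 are annotated as antisense non-coding RNAs. Granulocyte and monocyte progenitors are recognised by the primary granule genes Mpo, Elane, Prtn3 and Ctsg, lymphoid-primed progenitors by Dntt and then Il7r and Rag1, and stem cells by Hlf, Mecom, Procr and Fgd5.

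In the GRCm38 assembly with the GENCODE M21 annotation, Slc4a8 (ENSMUSG00000023032) lies on the plus strand at chr15:100761747-100823968. Rab44 (ENSMUSG00000064147) lies on the plus strand at chr17:29114145-29148980. Emilin2 (ENSMUSG00000024053) lies on the minus strand at chr17:71252172-71311978. BC018473 (ENSMUSG00000056032) lies on the plus strand at chr11:116752167-116759373 and overlaps no other annotated gene. Rab44 and Emilin2 overlap a pseudogene and a lincRNA on the opposite strand, with no exonic base in common. Gm15657 (ENSMUSG00000090214) lies on the minus strand at chr16:33770430-33796874. It overlaps Heg1 at one end and Muc13, a gene for a transmembrane mucin that the series title names, at the other, both on the plus strand. The overlap with Muc13 spans 2838 bases, of which 184 are exonic in both genes and 49 are Muc13 coding sequence. The overlap with Heg1 spans 1147 bases, of which 318 are exonic in both. Whether counting used the strand is not given in the sources used here, so reads of Gm15657 and reads of these partners cannot be told apart within the shared exons.

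The following 3 stretches show where these genes start and where counts can be ambiguous. RefSeq's promoter table (GRCm38.p6) held Slc4a8 and Emilin2, 2 of the 5 genes. The first is the 250 bases before the Slc4a8 start, at chr15:100761497-100761746 on the plus strand. The second is the 250 bases before the inner Emilin2 start, at chr17:71311012-71311261 on the minus strand. The third is the Muc13 coding stretch that Gm15657 exons also cover, at chr16:33794527-33794575, read on the Muc13 strand from the GENCODE transcript.
Slc4a8: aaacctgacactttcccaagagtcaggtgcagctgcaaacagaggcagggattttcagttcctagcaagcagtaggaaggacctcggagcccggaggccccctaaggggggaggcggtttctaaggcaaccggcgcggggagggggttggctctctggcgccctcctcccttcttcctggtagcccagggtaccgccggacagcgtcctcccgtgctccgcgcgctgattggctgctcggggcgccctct
Emilin2: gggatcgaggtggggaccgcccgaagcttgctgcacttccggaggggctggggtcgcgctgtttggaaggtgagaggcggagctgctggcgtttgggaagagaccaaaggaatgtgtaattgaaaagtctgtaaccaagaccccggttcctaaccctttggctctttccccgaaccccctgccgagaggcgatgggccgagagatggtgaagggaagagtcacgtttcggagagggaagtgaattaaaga
Muc13: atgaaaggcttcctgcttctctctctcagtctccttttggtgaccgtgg

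The table's windows run from 250 bases before to 50 after a start, 1 for Slc4a8 and 2 for Emilin2. They were searched on both strands for 4 motifs of blood cell factors, only in the forms given here, and none of the 3 windows held any of these forms. The letters GAGGAA, the form searched for PU.1, were held by 28.3% of all 32851 promoters of the table. Other forms of ETS factor sites were not searched, so the result does not cover them. The RUNX motif was searched as TGTGGT and was held by 16.8%. The C/EBP motif was searched as TTGCNNAA and was held by 10.8%. The GATA motif was searched as AGATAA and was held by 11.2%. The Slc4a8 and Emilin2 bases printed carry no capitals for that reason, and the Muc13 coding stretch was not marked for motifs.

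Libraries differed in depth and in their barcodes. They held 14970791 to 89747946 UMIs (unique molecular identifiers, 1 per counted transcript), and 1172 to 8862 cells were kept per library with a median of 8046 to 11083.5 UMIs. By their barcode sequences the libraries fell into 2 lists. WT replicate 4 and KO replicate 3 formed list B, and the other 5 libraries formed list A. The list was a term in every label fit. Pairs of libraries shared 0 to 88 barcodes. B4galt1 was counted in all KO-labelled libraries, at 27.4 to 55.6 CPM (a gene's counts scaled to a fixed library total) against 34.8 to 69.2 in WT-labelled ones. Which part was deleted is not stated in the labels, so these 3′ counts do not check them. Kit ran from 137 to 199 CPM and from 141 to 311 CPM in the 2 label groups. B-cell markers summed to at most 48.9 CPM, endothelial markers to 110 to 246 CPM and erythrocyte markers to at most 108 CPM, in WT replicate 4. Macrophage and stromal markers summed to at most 3.27 and 0.885 CPM in any library.

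Cells were sorted by marker gates that use none of the 5 genes. The 8 gates with at least 20 cells in every library held 20882 of 24430 kept cells (85.5%): quiescent and cycling stem-cell gates, a Flt3 gate, early Mpo cells, granule-high cells (at least 3 of Mpo, Elane, Prtn3, Ctsg and Ms4a3 and at least 30 of their UMIs), Dntt cells with or without granule genes, and Il7r/Rag1 lymphoid cells. The granule-high gate held 33.0%, 31.1% and 11.2% of the cells of KO replicates 1 to 3, and 7.15%, 5.03%, 2.40% and 2.98% of WT replicates 1 to 4. That share lay higher in each KO-labelled library and stands beside every all-cell value below.

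Over all kept cells, every KO-labelled library lay above every WT-labelled one for each of the 5 genes. Such separation was seen in 2.67% of the 15149 genes tested, but the genes were picked on this contrast, so nothing is read from it. The values are CPM with TMM normalization, and log2 differences are KO minus WT from the fit, with its standard error (SE).

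Slc4a8 stood at 24.5, 16.7 and 9.42 CPM in KO replicates 1 to 3. It stood at 6.01, 4.63, 3.02 and 2.88 CPM in WT replicates 1 to 4. The KO-labelled list B library was the lowest of its group and still above all WT-labelled libraries. The fitted log2 difference was 2.04 (SE 0.24), a 4.13-fold higher level.

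Rab44 stood at 111, 128 and 51.9 CPM in KO replicates 1 to 3, and at 50, 35.3, 22.0 and 15.3 CPM in WT replicates 1 to 4. The gap between the groups was narrow, since KO replicate 3 lay just above WT replicate 1. Within list B alone, KO replicate 3 was 3.38-fold above WT replicate 4. The fitted log2 difference was 1.75 (SE 0.23).

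Emilin2 stood at 48.3, 34.5 and 32.5 CPM in KO replicates 1 to 3, and at 18.8, 19.6, 17.1 and 14.9 CPM in WT replicates 1 to 4. The 2 label groups were each compact, at 38.4 ± 8.61 CPM (SD, n = 3) and 17.6 ± 2.08 CPM (SD, n = 4). The fitted log2 difference was 1.15 (SE 0.14), and the ratio was 2.24 within list A and 2.18 within list B.

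Gm15657 stood at 83.1, 69.3 and 112 CPM in KO replicates 1 to 3, and at 43.2, 46.4, 49.9 and 66.8 CPM in WT replicates 1 to 4. Both list B libraries were the highest of their group. KO replicate 2 and WT replicate 4 were close. The fitted log2 difference was 0.72 (SE 0.12), the smallest of the 5.

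BC018473 stood at 150.0, 33.9 and 39.7 CPM in KO replicates 1 to 3, and at 24.4, 25.4, 21.1 and 31.7 CPM in WT replicates 1 to 4. The group means rested on KO replicate 1, and the other KO-labelled libraries lay just above the WT-labelled ones. The fitted log2 difference was 1.498 (SE 0.59), and 0.43 without KO replicate 1.

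**Figure D1:**
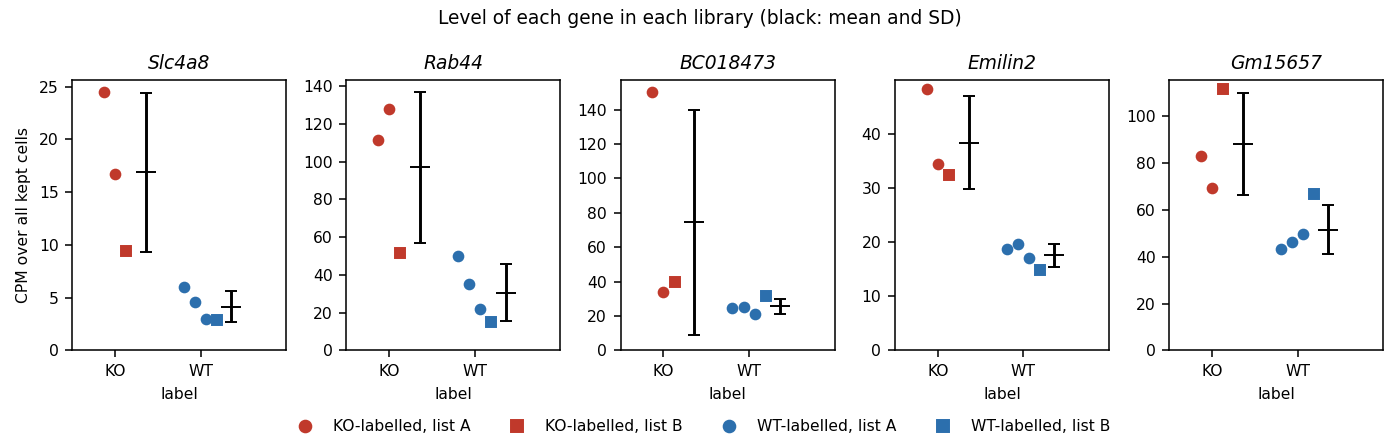
CPM (y axis, linear, from 0) of each gene over all kept cells, with 1 point per library, red for KO-labelled and blue for WT-labelled, circles for list A and squares for list B; black bars give mean and SD. For BC018473 a single KO-labelled library at 150.0 CPM stands far above the rest.

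The cell state that expressed each gene was tested by comparing each gated state with the mean of the other 7 within libraries (edgeR quasi-likelihood test with the library as a block, Benjamini-Hochberg adjusted over 12390 genes, called below 0.05). Rab44 and Slc4a8 were highest in granule-high cells, Emilin2 was high in granule-high, early Mpo and stem-cell gates, Gm15657 in early Mpo and stem-cell gates, both were low in the lymphoid gates, and BC018473 was high in lymphoid gates and low in cycling stem cells.

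Rab44 in granule-high cells stood at 95.6 CPM in the lowest library, 139 CPM in the median library and 166 CPM in the highest. The log2 level was 3.10 above the other states (SE 0.15, edgeR adjusted p = 1.105e-21), higher in 7 of 7 libraries, in a state where 35.7% of genes tested were called higher. Early Mpo cells followed at a median of 41.2 CPM (log2 1.16 above the other states, edgeR adjusted p = 2.73e-06). Dntt cells with granule genes stood at a median of 35.0 CPM (log2 0.98 above, edgeR adjusted p = 7.341e-05). The lowest medians were 3.52 CPM in Dntt lymphoid-primed cells and 6.38 CPM in quiescent stem cells, whose log2 levels were -2.20 and -1.87 against the other states (edgeR adjusted p = 0.001034 and 2.742e-08). The Dntt lymphoid-primed call was lost in the KO-labelled libraries alone and in thinned cells (adjusted p = 0.0934 and 0.0691).

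Slc4a8 in granule-high cells stood at 9.99 CPM in the lowest library, 17.7 CPM in the median library and 28.8 CPM in the highest. Its log2 level was 2.04 above the other states (SE 0.18, edgeR adjusted p = 3.567e-15), higher in 7 of 7 libraries. Dntt cells with granule genes came next, with a median of 8.55 CPM (log2 0.83 above, edgeR adjusted p = 0.001606), a call lost in the KO-labelled libraries alone and in thinned cells (adjusted p = 0.13 and 0.132). In quiescent stem cells the median was 1.82 CPM and 1 WT-labelled library had no UMI of it. That state lay 1.54 below the others on the log2 scale, a fitted value of -1.54 (edgeR adjusted p = 7.229e-07).

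Emilin2 was high in myeloid and stem-cell gates alike. Granule-high cells (median 26.5 CPM), early Mpo cells (24.7 CPM), quiescent stem cells (20.7 CPM) and cycling stem cells (19.4 CPM) all lay above the mean of the other states in 7 of 7 libraries, by log2 1.06, 0.97, 0.68 and 0.66 (edgeR adjusted p = 3.452e-15, 1.399e-12, 1.197e-08 and 4.169e-06). The Dntt lymphoid-primed and Il7r/Rag1 lymphoid gates had medians of 3.13 and 4.55 CPM. Their log2 levels were -1.52 and -1.78 against the other states (edgeR adjusted p = 1.727e-06 and 1.443e-10). The first was -2.15 without KO replicate 3 and was not called in the KO-labelled libraries alone (adjusted p = 0.334).

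Gm15657 had its highest fitted level in early Mpo cells, with a lowest, median and highest library of 66.2, 91.6 and 142 CPM (log2 0.88 above, SE 0.11, edgeR adjusted p = 1.118e-07, 7 of 7 libraries). Quiescent stem cells stood at 73.6 CPM in the median library, 0.53 above on the log2 scale (edgeR adjusted p = 0.0001387). Cycling stem cells stood at 70.1 CPM in the median library, 0.40 above (edgeR adjusted p = 0.01557). The cycling call was lost in the KO-labelled libraries alone, without KO replicate 2 and without WT replicate 2 (edgeR adjusted p = 0.281, 0.0581 and 0.0537). Granule-high cells were not called (log2 0.27 above, edgeR adjusted p = 0.05603) and were higher in 3 of 7 libraries. The lymphoid gates were low, at medians of 18.2 CPM in Il7r/Rag1 cells and 19.2 CPM in Dntt lymphoid-primed cells, with log2 levels of -1.10 and -1.41 (edgeR adjusted p = 1.182e-05 and 1.214e-05). The Il7r/Rag1 call was lost in the KO-labelled libraries alone (adjusted p = 0.0567).

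BC018473 ran from 43.6 to 90.0 CPM over the libraries in Il7r/Rag1 lymphoid cells, with a median of 68.8 CPM. That was log2 1.02 above the other states (SE 0.24, edgeR adjusted p = 0.0005909), higher in 6 of 7 libraries. The call was lost in list A alone and in the KO-labelled libraries alone (adjusted p = 0.0797 and 0.351). Dntt lymphoid-primed cells had a median of 49.5 CPM (log2 0.84 above, edgeR adjusted p = 0.02802), and 7 of 15 alternative settings lost that call, among them leaving out KO replicate 3 or any WT-labelled replicate (adjusted p = 0.0541 to 0.118). Granule-high cells were called higher by log2 0.97 (edgeR adjusted p = 7.502e-06), yet only 4 of 7 libraries were higher, from 20.8 to 189 CPM. Cycling stem cells and early Mpo cells were lower in 7 of 7 libraries, at log2 -1.45 and -1.03 (edgeR adjusted p = 3.13e-05 and 0.0004176). Both calls were lost in the KO-labelled libraries alone (adjusted p = 0.0946 and 0.342).

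Ranked by median level, each state was set against the next one with an exact permutation test (two-sided, 7 libraries as pairs, 35 comparisons in all), whose smallest possible p is 0.0156. For Rab44, granule-high cells differed from early Mpo cells (exact permutation test, adjusted p = 0.0421), while early Mpo cells and Dntt cells with granule genes differed by less than their spread (log2 0.23 ± 0.38, SD, n = 7, exact adjusted p = 0.317). For Slc4a8, the 2 top steps passed (exact adjusted p = 0.0421) and the 5 below did not. For Emilin2, granule-high and early Mpo cells could not be ordered (log2 -0.09 ± 0.29, SD, n = 7, exact adjusted p = 0.565). For Gm15657, the Flt3 gate had the highest plain median and did not differ from early Mpo cells beyond their spread (exact adjusted p = 0.565). For BC018473, none of the 4 steps from Il7r/Rag1 cells down to granule-high cells passed.

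Of the 5 genes, 4 were called higher in granule-high cells and 0 lower, where 35.7% and 33.7% of all genes tested were. Early Mpo cells had 3 higher and 1 lower (8.77% and 5.04% of all genes), quiescent stem cells 2 and 3 (32.7% and 28.9%), and cycling stem cells 2 and 3 (18.8% and 19%). Dntt cells with granule genes had 2 higher and 1 lower (13.7% and 6.13%), Dntt lymphoid-primed cells 1 and 3 (10.5% and 9.5%), Il7r/Rag1 cells 1 and 2 (18.6% and 14.4%) and the Flt3 gate 0 and 0 (6.23% and 9.75%).

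**Figure D2:**
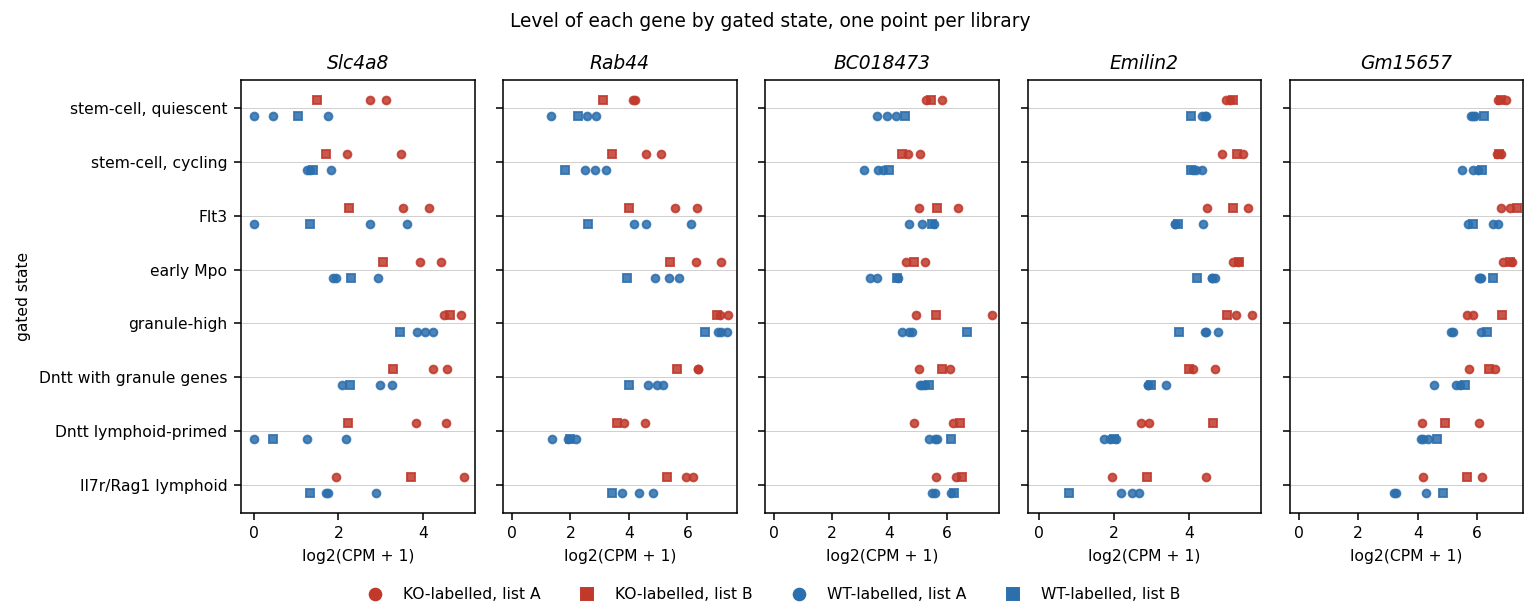
log2(CPM + 1) (x axis) of each gene in the 8 gated states (y axis), with 1 point per library, red for KO-labelled above blue for WT-labelled, squares for list B. Rab44 red and blue points overlap in granule-high cells, early Mpo cells and the Flt3 gate, and part in the other 5 states.

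Gates held by fewer libraries give values with no test, with 95% exact Poisson intervals that cover counting error only. BC018473 was at its highest there, in cells gated on secondary-granule genes such as Ltf and Ngp. It stood at 557 CPM (517 to 600) in KO replicate 1, 255 CPM (188 to 339) in WT replicate 1 and 263 CPM (206 to 330) in WT replicate 3. These 3 libraries had 70, 22 and 29 such cells. Rab44 was also high in basophil and mast-cell-primed cells, at 148 CPM (132 to 164) in KO replicate 1, 131 CPM (117 to 145) in KO replicate 3 and 86.5 CPM (70.1 to 106) in WT replicate 4. Emilin2 in dendritic and monocytic cells followed the barcode list, at 81.2 and 55.2 CPM in KO replicates 1 and 2 and 78.5 and 91.8 CPM in WT replicates 1 and 3, against 17.2 CPM in KO replicate 3 and 17.5 CPM in WT replicate 4.

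The label difference of Rab44 was smallest where its level was highest. In granule-high cells it stood at 139, 166 and 129 CPM in KO replicates 1 to 3, and at 163, 142, 131 and 95.6 CPM in WT replicates 1 to 4. The groups overlapped, and the fitted log2 difference was 0.17 (SE 0.17). In cycling stem cells it stood at 22.7, 33.4 and 9.68 CPM against 8.22, 6.19, 4.60 and 2.48 CPM, with no overlap and a log2 difference of 2.08 (SE 0.32). The log2 difference was 1.69 (SE 0.35) in quiescent stem cells, 1.81 (SE 0.25) in Il7r/Rag1 cells, 1.55 (SE 0.15) in Dntt cells with granule genes, 1.45 (SE 0.22) in early Mpo cells and 0.87 (SE 0.52) in the Flt3 gate, and in the last 2 the groups overlapped. The Flt3 value rests on 29 UMIs in WT-labelled libraries, 14 of them in WT replicate 1, and was 1.57 without that library. Whether these differences differ between states was not tested.

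Slc4a8 passed the filter on low counts in 4 of the 8 states. In granule-high cells it stood at 28.8, 21.5 and 23.7 CPM in KO replicates 1 to 3, and at 17.7, 13.6, 15.4 and 9.99 CPM in WT replicates 1 to 4. The groups did not overlap, and the log2 difference was 0.87 (SE 0.21). It was 1.56 (SE 0.29) in Dntt cells with granule genes, 1.68 (SE 0.33) in early Mpo cells and 2.10 (SE 0.64) in quiescent stem cells. The last value rests on few molecules, 67 UMIs in KO-labelled and 25 in WT-labelled libraries, and there the groups overlapped. It was 3.15 without KO replicate 3 and 3.14 without WT replicate 4.

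The transcripts of granule proteins were also measured in the gates other than granule-high. Several of these gates also use such genes, so the levels there are partly set by the gate. Early Mpo cells were gated on Mpo, and Dntt cells were split at a sum of 3 UMIs of Mpo, Elane, Prtn3 and Ctsg. The stem-cell and Flt3 gates took cells left after the early Mpo gate. Mpo, Elane, Prtn3, Ctsg and Ms4a3 were summed. In quiescent stem cells they stood at 369 to 552 CPM in KO-labelled libraries and at 165 to 370 CPM in WT-labelled ones. In Il7r/Rag1 cells they stood at 1059 to 1790 CPM against 456 to 472 CPM. They stood at 342 to 485 CPM against 162 to 261 CPM in cycling stem cells, 1177 to 1671 CPM against 723 to 983 CPM in early Mpo cells and 555 to 608 CPM against 182 to 379 CPM in the Flt3 gate. In 6 of the 7 gates other than granule-high, every KO-labelled library lay above every WT-labelled one, and in quiescent stem cells the groups met at the edge. Rab44 in quiescent stem cells was 13.9%, 9.73% and 5.75% of its granule-high level in KO replicates 1 to 3, and 4.03%, 3.40%, 1.17% and 3.86% in WT replicates 1 to 4. Elane, Prtn3 and Ctsg, with Mpo and Ms4a3 left out, were at 3.81%, 7.41% and 9.17%, and at 2.21%, 3.06%, 4.44% and 3.14%, of theirs. The Rab44 share was above that of Elane, Prtn3 and Ctsg in 5 of 7 libraries there, and below it in KO replicate 3 and WT replicate 3. In early Mpo cells it was above in 7 of 7, at 14.9% to 81.4% against 3.54% to 16.4%. The part of free RNA or of granule-high cells in the Rab44 and Slc4a8 values of other gates was not tested.

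Emilin2 had a label difference above 0 in each state where it passed the filter, from log2 0.84 (SE 0.15) in early Mpo cells to 1.33 (SE 0.23) in Dntt cells with granule genes. In quiescent stem cells it stood at 33.4, 30.6 and 34.8 CPM in KO replicates 1 to 3, and at 20.7, 19.5, 20.6 and 15.5 CPM in WT replicates 1 to 4. Each group was tight and they did not overlap, with a log2 difference of 0.85 (SE 0.16). The log2 ratio there was 0.66 within list A and 1.17 within list B, and in early Mpo cells 0.63 and 1.18. In Dntt cells with granule genes list A had the larger ratio, at log2 1.455 against 1.106. The fitted log2 difference was 1.07 (SE 0.19) in granule-high cells and 1.13 (SE 0.21) in cycling stem cells.

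Gm15657 passed the filter in all 8 states. In quiescent stem cells it stood at 125, 102 and 110 CPM in KO replicates 1 to 3, and at 59.0, 54.0, 56.6 and 73.6 CPM in WT replicates 1 to 4, with a log2 difference of 0.87 (SE 0.15) and no overlap. Early Mpo cells gave 142, 115 and 136 CPM against 66.2, 68.2, 67.0 and 91.6 CPM, a log2 difference of 0.82 (SE 0.13). The log2 difference was 0.37 (SE 0.20) in granule-high cells. The Il7r/Rag1 value was 1.45 (SE 0.43) with all libraries, 0.76 without KO replicate 1, and 2.03 without KO replicate 3 or WT replicate 4. The groups overlapped in both.

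The label difference of BC018473 ranged widely over the states, and whether it differs between them was not tested. In quiescent stem cells it stood at 37.8, 55.4 and 41.9 CPM in KO replicates 1 to 3, and at 17.9, 14.2, 10.9 and 22.2 CPM in WT replicates 1 to 4. No library overlapped there, KO replicate 1 was the lowest of its group, and the log2 difference was 1.41 (SE 0.21). It was 1.05 (SE 0.27) in cycling stem cells and 1.02 (SE 0.24) in early Mpo cells, and 0.22 in both the Il7r/Rag1 (SE 0.21) and Dntt lymphoid-primed (SE 0.29) gates.

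In granule-high cells the 2 barcode lists went opposite ways for BC018473. List A gave 189 and 29.3 CPM in KO replicates 1 and 2, and 20.8, 26.5 and 24.4 CPM in WT replicates 1 to 3. List B gave 48.4 CPM in KO replicate 3 and 103 CPM in WT replicate 4. The log2 difference of 1.16 had an SE of 1.09 and was -0.36 without KO replicate 1.

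Counting the genes whose KO-labelled libraries all lay above all WT-labelled ones gave 4 of the 5 in quiescent stem cells (all genes tested there, 0.818%), 4 in cycling stem cells (0.737%), 2 in the Flt3 gate (0.529%) and 4 in early Mpo cells (1.32%). It gave 2 in granule-high cells (1.08%), 4 in Dntt cells with granule genes (1.5%), 3 in Dntt lymphoid-primed cells (1.41%) and 1 in Il7r/Rag1 cells (1.75%). Within list B, KO replicate 3 was above WT replicate 4 in 39 of the 40 pairs of gene and state, the exception being BC018473 in granule-high cells. That count sets 1 library against 1 other, and the share of all genes is not given for it. Only 31 of the 40 pairs passed the low-count filter. Slc4a8 in Dntt lymphoid-primed cells, for example, had 2 UMIs in KO replicate 3 and 1 in WT replicate 4. The genes were chosen on this contrast, so these counts describe them and support nothing. Among the genes counted as separated in all libraries, some had not passed the low-count filter, 1 in the Flt3 gate and 3 in the Dntt lymphoid-primed gate.

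**Figure D3:**
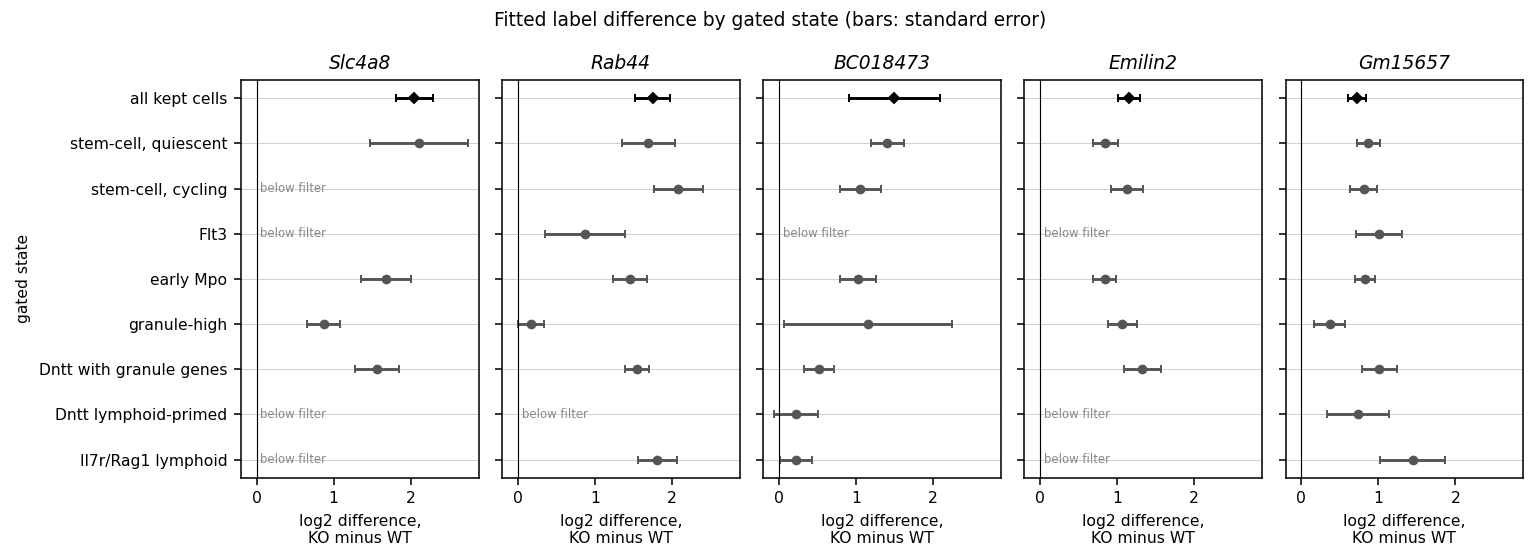
Fitted log2 difference, KO minus WT (x axis, bars give SE), over all kept cells (diamond) and in each gated state (circles), with states below the low-count filter marked. Rab44 sits near 0 in granule-high cells and between 0.87 and 2.08 in the other states fitted.

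State shares and levels within states were then held equal in turn. With each library given the same shares of the 8 states, the log2 difference of Rab44 was 0.85 against 1.70 observed without TMM, and the groups overlapped. With each library's own shares and the levels of the WT-labelled libraries of its list, it was 1.27. For Slc4a8 the values were 1.45 with equal shares, 0.98 from shares alone and 1.97 observed. For Emilin2 they were 0.93, 0.27 and 1.04, for Gm15657 0.81, -0.03 and 0.63, and for BC018473 0.93, 0.09 and 1.13. With equal shares, the groups did not overlap for these other 4 genes. In another fit, granule-high cells, Dntt cells with granule genes, secondary-granule cells and dendritic or monocytic cells were left out instead. The fitted log2 difference was then 1.66 for Rab44 and 1.95 for Slc4a8. The gates left out in that fit are named below as the granule, monocyte, dendritic and neutrophil gates.

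**Figure D4:**
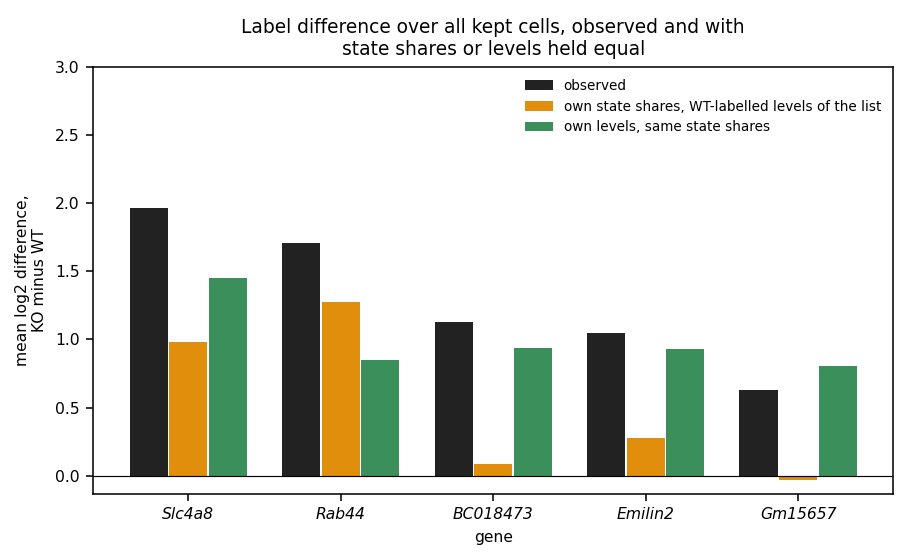
Mean log2 difference, KO minus WT with the barcode list as a term (y axis), for each gene: observed (black), with own state shares and WT-labelled levels (orange), and with own levels and equal state shares (green). The orange bar is the taller of the 2 coloured ones only for Rab44, at 1.27 against 0.85.

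Patterns over states were compared as Pearson r across 56 library-by-state levels, centred within libraries, a description in which states of a library share its depth. Rab44 was most like Ctsg (r = 0.91) and Mpo (0.91), both genes of primary granules and of the granule-high gate. Slc4a8 was most like Pycard (r = 0.76), an inflammasome adaptor, Rab44 (0.75) and Slpi (0.74), a protease inhibitor. Emilin2 was like S100a1 (r = 0.87) and Dach1 (0.85). BC018473 was most like Xpc (r = 0.74), Rasa4 (0.73) and Ncf1 (0.73), and its r with Emilin2 was -0.63. Gm15657 was most like its overlapping partner Muc13 (r = 0.88), then Selp (0.86) and Ikzf2 (0.85), while its r with the other partner Heg1 was 0.44.

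Muc13 itself had a log2 label difference of 0.41 (SE 0.20) over all kept cells, with an edgeR adjusted p of 0.295. It was called higher in 3 of the 8 states, by log2 0.94 in Dntt cells with granule genes, 1.42 in Il7r/Rag1 cells and 1.71 in Dntt lymphoid-primed cells (edgeR adjusted p = 0.005277, 0.0009197 and 0.02197), where 0.244%, 0.429% and 0.0112% of all genes tested were called higher. Heg1 had a log2 label difference of -0.22 (SE 0.16, edgeR adjusted p = 0.481). Gm15657 UMIs per 100 Muc13 UMIs ranged from 43.6 to 83.9 in KO-labelled and from 42.0 to 60.5 in WT-labelled libraries, so the 2 genes' counts did not keep 1 ratio across libraries.

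Gm15657 and Muc13 were then compared cell by cell, with each cell thinned to 3000 UMIs and shallower cells left out (166 of 2892 KO-labelled and 193 of 4376 WT-labelled quiescent stem cells). Muc13 was found in 40.3%, 49.4% and 49.3% of the Gm15657-positive quiescent stem cells of KO replicates 1 to 3, and in 33.9%, 39.5% and 41.5% of the others. In WT replicates 1 to 4 it was found in 37.9%, 33.3%, 29.5% and 31.9% of the positive cells and in 25.4%, 27.3%, 20.9% and 22.1% of the others. Positive cells were higher in 7 of 7 libraries, by 8.70 ± 2.24 percentage points (SD, n = 7, two-sided exact permutation test over paired libraries p = 0.0156, the smallest it can give, adjusted p = 0.0312 over 2 states). Without thinning the difference was 16.6 points. In early Mpo cells it was 4.75 ± 4.90 points, higher in 6 of 7 libraries (SD, n = 7, exact permutation p = 0.0313, adjusted p = 0.0313).

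In a gate with lower levels of both genes, Dntt lymphoid-primed cells of WT-labelled libraries had a Gm15657 UMI in 4.56% to 5.97% of thinned cells and a Muc13 UMI in 3.49% to 10.4%. Quiescent stem cells of the same libraries had 14.2% to 17.0% and 22.1% to 28.2%. Without thinning the shares were 11.6% to 15.9% and 9.39% to 20.3% in the former, and 24.7% to 30.1% and 38.4% to 43.1% in the latter. In KO-labelled libraries, whose 130 Dntt lymphoid-primed cells are few, the thinned shares there were 3.70% to 22.7% for Gm15657 and 11.1% to 40.9% for Muc13, so that gate gives no low reference for those 3 libraries. How much of the joint detection comes from reads of the shared exons was not tested.

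**Figure D5:**
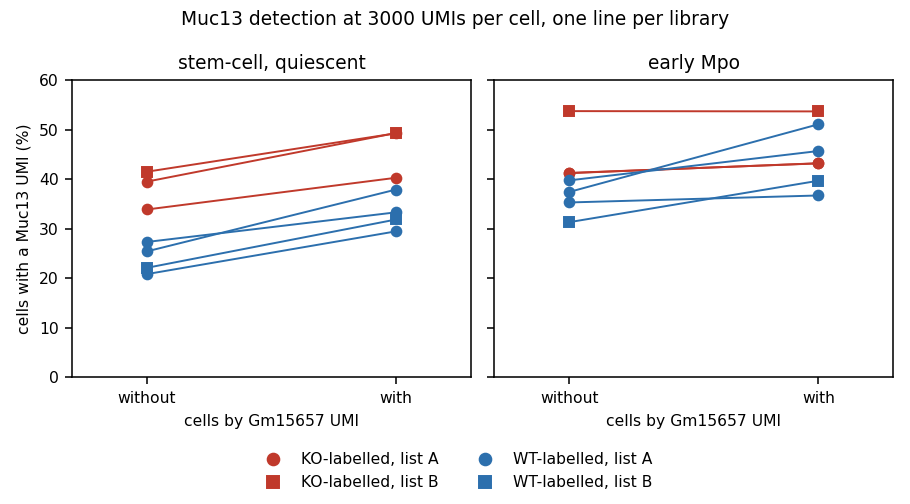
Percentage of cells with a Muc13 UMI (y axis, from 0) among cells without and with a Gm15657 UMI (x axis) at 3000 UMIs per cell, with 1 line per library, red for KO-labelled and blue for WT-labelled. All 7 lines rise in quiescent stem cells, and 6 of 7 in early Mpo cells.

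Relatives of these genes were read from lists over all kept cells, where the median log2 difference of all genes tested was 0.01. In the SLC4 bicarbonate transporter family, 0 of 6 tested genes were called in either direction, against 1.07% of all genes tested (median log2 0.04). By unadjusted p below 0.05, 2 of the 6 differed, and DESeq2 called 1, where 18.9% and 5.70% of all genes tested passed these thresholds. Slc4a4, a sodium-bicarbonate cotransporter, had the smallest p, at 0.27, 0.89 and 0.13 CPM in KO replicates 1 to 3 and 1.04, 1.73, 1.22 and 0.75 CPM in WT replicates 1 to 4 (log2 -1.69, SE 0.50, edgeR adjusted p = 0.128). Slc4a10, also a sodium-driven exchanger, had a log2 difference of 1.47 (SE 0.48, edgeR adjusted p = 0.154). Both were under 2 CPM in every library.

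Of 16 other acid-base genes tested, 0 were called (median log2 -0.06), with 9 at an unadjusted p below 0.05 and 3 called by DESeq2, beside the same 18.9% and 5.70% of all genes. Car2, the main cytosolic carbonic anhydrase, had a log2 difference of -1.08 (SE 0.23, edgeR adjusted p = 0.0621), and Slc26a11, an anion transporter, -1.03 (SE 0.23, edgeR adjusted p = 0.0692). Within Il7r/Rag1 cells Car2 fell by 0.80 on the log2 scale (edgeR adjusted p = 0.02189, where 0.268% of genes tested were called lower).

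Of 17 EF-hand Rab and granule-secretion genes tested, 0 were called (median log2 0.19), with 8 at an unadjusted p below 0.05 and 3 called by DESeq2, beside the same shares of all genes. Rab27a, which docks secretory granules at the membrane, had a log2 difference of 0.70 (SE 0.15, edgeR adjusted p = 0.0625), and Sytl4, which encodes a Rab27 effector, -1.23 (SE 0.28, edgeR adjusted p = 0.0692). Within Il7r/Rag1 cells Rab27a rose by log2 0.95 (edgeR adjusted p = 0.01001, where 0.429% were called higher).

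In the emilin and multimerin family, 1 of 3 tested genes was called, against 1.07% of all genes tested. The called gene went opposite to Emilin2 (family median log2 -0.32). Mmrn1, encoding the platelet and endothelial protein multimerin 1, stood at 5.92, 6.64 and 14.8 CPM in KO replicates 1 to 3 and at 15.3, 24.7, 29.4 and 29.2 CPM in WT replicates 1 to 4. It fell by 1.60 on the log2 scale (SE 0.25, edgeR adjusted p = 0.0288). The call was lost without KO replicate 1, KO replicate 2, WT replicate 2 or WT replicate 3 (adjusted p = 0.174, 0.0853, 0.066 and 0.0672), and without the granule, monocyte, dendritic and neutrophil gates (log2 -0.88, adjusted p = 0.0795). With no list term the Mmrn1 call was lost as well (log2 -1.434, edgeR adjusted p = 0.717). Within early Mpo cells Mmrn1 fell by 1.60 on the log2 scale (edgeR adjusted p = 0.0489, where 0.0745% were called lower). Emilin1 had a log2 difference of 0.39 (SE 0.11, edgeR adjusted p = 0.126), the same direction as Emilin2. Emilin1 and Mmrn1 had an unadjusted p below 0.05, and DESeq2 called both. Of all genes tested, 18.9% and 5.70% passed these thresholds.

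Genes that start within 500 kb of the 5 were examined as chromosomal neighbours. Of 97 tested, 1 was called higher and 2 lower, which is to be read beside 0.462% and 0.607% of all genes tested. Mxra7, the nearest tested gene to the right of BC018473, had a log2 difference of 1.38 (SE 0.27, edgeR adjusted p = 0.0436). Itgb5, an integrin beta subunit gene and the nearest to the right of Gm15657, had -1.03 (SE 0.20, edgeR adjusted p = 0.0452), and Pou6f1, near Slc4a8, had -0.97 (SE 0.17, edgeR adjusted p = 0.0338). The Mxra7 call was lost without any 1 of the 7 libraries (adjusted p up to 0.21). The Itgb5 call was lost without KO replicates 1 or 2 or WT replicates 1, 2 or 3 (up to 0.145), and the Pou6f1 call without any library but KO replicate 3 (up to 0.0907). The nearest tested genes beside Rab44, Cdkn1a and Cpne5, had log2 differences of 0.39 and 0.46 (edgeR adjusted p = 0.267 for both). Those beside Emilin2, Lpin2 and Gm4566, had -0.29 and 0.35 (edgeR adjusted p = 0.241 and 0.63). St6galnac2 beside BC018473 had 0.54, Slc12a8 beside Gm15657 -0.26, and I730030J21Rik and Acvrl1 beside Slc4a8 0.55 and 0.33 (edgeR adjusted p = 0.305, 0.765, 0.402 and 0.73).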

How the data were processed

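Single-cell RNA libraries of sorted LSK bone marrow cells were made with the Single Cell 3′ v2 kit, per the labels' protocols. The deposited files hold UMI counts per gene and barcode, made by the authors with Cell Ranger 7.0.0 per the file headers, on mm10 per the submitters' processing notes. The notes also name Seurat 4.4.0 with no role. Strand and intron settings are not given in the sources used here.

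Barcodes with at least 1000 UMIs, 500 genes and at most 10% mitochondrial UMIs were kept. Doublets were not removed. Cells were assigned by ordered marker gates (15 gates), and 8 states with at least 20 cells in every library were compared. Counts were summed per library and state and tested with edgeR 4.0.16 (R 4.3.3, TMM, quasi-likelihood, Benjamini-Hochberg adjustment over all genes tested, threshold 0.05), with barcode list and label as terms, or state and library for state contrasts. DESeq2 1.42.0 was an alternative. Tested on simulated data, the label fit over 14904 genes and a fit over 11874 genes recovered 100% of 200 genes changed by a log2 fold of 2, with 8 and 3 false calls. The changed genes were drawn from well-counted genes, and the spread was set in advance rather than estimated from these libraries. Recovery of smaller changes or of genes with few UMIs was not tested. Genes named by likeness were the 3 of highest Pearson r with a mean of at least 10 CPM. Some of these are not reported here. The ranked state comparisons, the likeness values and the correlations of libraries used log2 CPM with a pseudocount of 1 CPM. The edgeR log2 levels did not use it.

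The members and the lists were chosen with earlier results of these data known. The labels do not say whether libraries came from separate animals, so p-values measure the spread between these libraries. Gene positions came from GENCODE M21, which matched 32235 of 32285 gene IDs. The files held 0 columns of other series.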

Additional observations from a re-analysis of the deposited data

Results flagged for a closer look

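In groups of 4 libraries, 1 WT-labelled library stood far from the other 3 in 4 of 45 groups examined, where chance alone flags about 1 in 20 groups. Emilin2 in Dntt cells with granule genes stood at 9.514 CPM in WT replicate 1 (22 UMIs), against 6.54 to 6.898 CPM in the others. Emilin2 in the Flt3 gate stood at 19.72 CPM in the same library, from 4 UMIs, against 11.34 to 12.16 CPM. Gm15657 in early Mpo cells stood at 91.63 CPM in WT replicate 4, against 66.22 to 68.19 CPM. BC018473 in granule-high cells stood at 102.6 CPM in WT replicate 4, against 20.79 to 26.52 CPM.

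The label difference of BC018473 in granule-high cells had opposite signs in the barcode lists, at log2 2.19 in list A and -1.085 in list B. That difference between lists was not tested.

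Barcodes that failed the filters were used in no comparison, and they also held these genes. In list A, the lower KO-labelled library had 4.219 CPM of Slc4a8 in failed barcodes (13 UMIs), and the highest WT-labelled one 4.116 CPM (11 UMIs). With so few UMIs, these Slc4a8 values do not part the groups. For Rab44 the values were 88.93 and 50.52 CPM, for BC018473 23.37 and 10.48 CPM, for Emilin2 29.21 and 20.95 CPM, and for Gm15657 51.93 and 43.1 CPM.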

How the results depend on the processing

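Over all kept cells, leaving out 1 library at a time gave log2 differences for BC018473 from 0.43 (without KO replicate 1) to 1.97. Equal state shares gave 0.85 for Rab44 and 1.45 for Slc4a8. The BC018473 call in Il7r/Rag1 cells was lost in list A alone (log2 0.91) and in KO-labelled libraries alone (0.74). The 162 genes called over all kept cells became 93 in thinned cells, 864 with DESeq2, 362 in list A alone, 0 with no list term (697 at an unadjusted p below 0.05), 547 with no filter on low counts and 52 without the granule, monocyte, dendritic and neutrophil gates. Leaving out single libraries gave 16 (WT replicate 3) to 363 (KO replicate 3). Of 42 related genes the count of 1 became 0 with no list term, 4 in list A alone, 9 with DESeq2, 7 with no filter, 0 without those gates, and 0 to 4 without single libraries. Of 580 alternatives over the 40 state contrasts, 533 kept direction and side of the threshold, 30 lost the call, 17 gained one and 0 reversed. Of 445 alternatives to the 31 label differences within states, 443 stayed above 0, and 429 moved by less than the SD between libraries. The genes were chosen as higher in KO-labelled libraries within states, so staying above 0 supports nothing. Emilin2 moved further than that SD under 4 settings in early Mpo cells and 4 in quiescent stem cells.

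With the replicate number as a block, 2699 genes and 16 related genes were called, and the log2 differences were 1.945 for Slc4a8, 1.503 for Rab44, 1.549 for BC018473, 1.094 for Emilin2 and 0.7652 for Gm15657. Deviations of same-numbered libraries, with barcode list not removed, correlated at 0.596, 0.802 and -0.441. The last pair spans the 2 lists, so its value cannot decide pairing. KO replicate 3 correlated best with WT replicate 4, also of list B (0.901). Within list A, KO replicate 1 correlated best with WT replicate 1 (0.339 and 0.264 with WT replicates 2 and 3). KO replicate 2 correlated best with WT replicate 2 (0.544 and 0.424 with WT replicates 1 and 3). The main fits did not take the numbers as pairs, and whether they are was not settled. Alternatives for neighbouring and related genes and the unthinned detection were chosen after seeing the data. Low counts limit Slc4a8 outside granule-high cells.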
